A study of Mus musculus with 12 samples.

Results

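Integrins, cadherins, protocadherins, desmosomal proteins, claudins, connexins and a few of their binding partners were followed through reprogramming of mouse fibroblasts by the transcription factor Oct4 (gene Pou5f1) together with Tet1, which oxidises the methyl group of methylated cytosines. Members were chosen by gene symbol alone: the integrin subunits and the genes named for them, Cdh, Pcdh, Cldn, Gja to Gjd, Dsg, Dsc, Dsp, Pkp, Jup, Tjp and Cadm genes, except the cadherins Cdh1 and Cdh3. The deposited table held 71 such genes, each with 1 probe set, of 9539 genes in all. They are 10 alpha integrins, 5 beta integrins, 3 genes named for an integrin, 9 cadherins, 16 protocadherins of the beta cluster, 8 other protocadherins, 4 desmosomal genes, 7 claudins or claudin-domain genes, 5 connexins, and 4 genes of the zonula occludens and Cadm families.

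Cells hold on to the matrix and to each other through these proteins. Integrins are pairs of an alpha and a beta subunit that bind matrix proteins outside and talin, vinculin and actin inside. Cadherins and desmosomal cadherins bind their like on the next cell and are anchored by catenins and plakoglobin-type proteins, claudins seal the tight junctions of epithelia, and connexins form the channels of gap junctions. Mesenchymal cells such as fibroblasts are known for N-cadherin, matrix-binding integrins and loose contacts, while ES cells grow as compact colonies held by E-cadherin and laminin-binding integrins, and a change of adhesion is a known feature of reprogramming.

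RNA was measured on 12 Affymetrix arrays, 3 for each of 4 groups. Day-1 cells were fibroblasts at passage 3 grown from OT-iPSC mice (OT for Oct4 and Tet1) with the background OG2-GFP/Rosa26-M2rtTA, kept for 1 day in doxycycline and ES medium, where the drug acts through the M2rtTA transactivator. The iPS cells were the line OT#b at passage 10 with that same background, and R1 ES cells were used at passage 20, with the strain given as 129. Fibroblasts were at passage 3, with the background OG2-GFP/Rosa26-M2rtTA given for replicate 1 and with M3rtTA and M4rtTA written in the labels of the other 2 replicates. Each pluripotent group is 1 line, both lines grew on mitomycin C-treated feeder fibroblasts, and the ES cell protocol includes replating for 0.5 h to let feeders settle. No label says whether a group's arrays are from separate cultures, and the p-values then cover only the spread between these samples, which may be technical.

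Pou5f1 had mean log2 values of 11.79 in day-1 cells, 12.01 in iPS cells, 12.36 in ES cells and 5.04 in fibroblasts. Array medians were 8.25 to 8.29 in day-1 cells, 7.98 to 8.06 in iPS cells, 7.89 to 7.98 in ES cells and 8.25 to 8.29 in fibroblasts, and differences are given on this deposited scale. Of the 14 pluripotency markers, 14 rose in iPS cells and 14 in ES cells relative to fibroblasts, and 1, Pou5f1, rose in day-1 cells. The 17 markers that fibroblasts and feeders share had a summed linear level of 45600 to 47300 in day-1 cells, 16800 to 17800 in iPS cells, 4570 to 6690 in ES cells and 54600 to 63300 in fibroblasts. Their mean log2 level was 8.08 in ES replicate 2 and 7.60 and 7.58 in the other ES arrays, and for some of the members that were highest in that array among ES cells the value without it is given as well. In such bulk samples, fewer cells of a type and less RNA per cell cannot be told apart. The part of feeder RNA in the levels of the lines was not tested. Of 11 leukocyte markers measured, 1 rose and 6 fell in each line, of 5 endothelial markers 1 rose in each, with 2 lower in iPS cells and 1 lower in ES cells, and of 4 primitive endoderm markers 1 rose in each, with 2 lower in iPS cells and 1 lower in ES cells.

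A gene was called when its limma adjusted p was under 0.05 and its log2 difference at least 1 in size. Of all genes, 51.3% were called in iPS cells against fibroblasts, 21.8% higher and 29.6% lower, and 55.6% in ES cells against fibroblasts, 23.4% higher and 32.1% lower. Of the 71 members, 11 rose and 31 fell in iPS cells, and 13 rose and 32 fell in ES cells. Groups did not overlap for 65 members in iPS cells and 67 in ES cells, beside 94.0% of all genes in each comparison. By adjusted p alone, with no minimum, 19 members were higher and 46 lower in iPS cells, beside 42.0% and 52.2% of all genes, and 21 and 48 in ES cells, beside 43.2% and 51.7%. The median difference of the members was -0.90 in iPS cells and -0.70 in ES cells, beside -0.35 over all genes in each. With arrays centred on a common median, the member split was 16 higher and 26 lower in iPS cells and 13 higher and 25 lower in ES cells. The member medians were then -0.64 and -0.36. All-gene calls were then 55.9% higher in iPS cells and 58.7% in ES cells, beside 42.4% and 42.2% as deposited. Fibroblasts and day-1 cells held the highest mean for most members, 29 for fibroblasts and 20 for day-1 cells, while 12 members were highest in ES cells and 10 in iPS cells. This was not counted over all genes, and array medians were also higher in fibroblasts and day-1 cells than in the lines. The comparisons of iPS and ES cells with fibroblasts share the fibroblast arrays, so their values are set side by side and not counted as separate evidence.

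**Figure D1:**
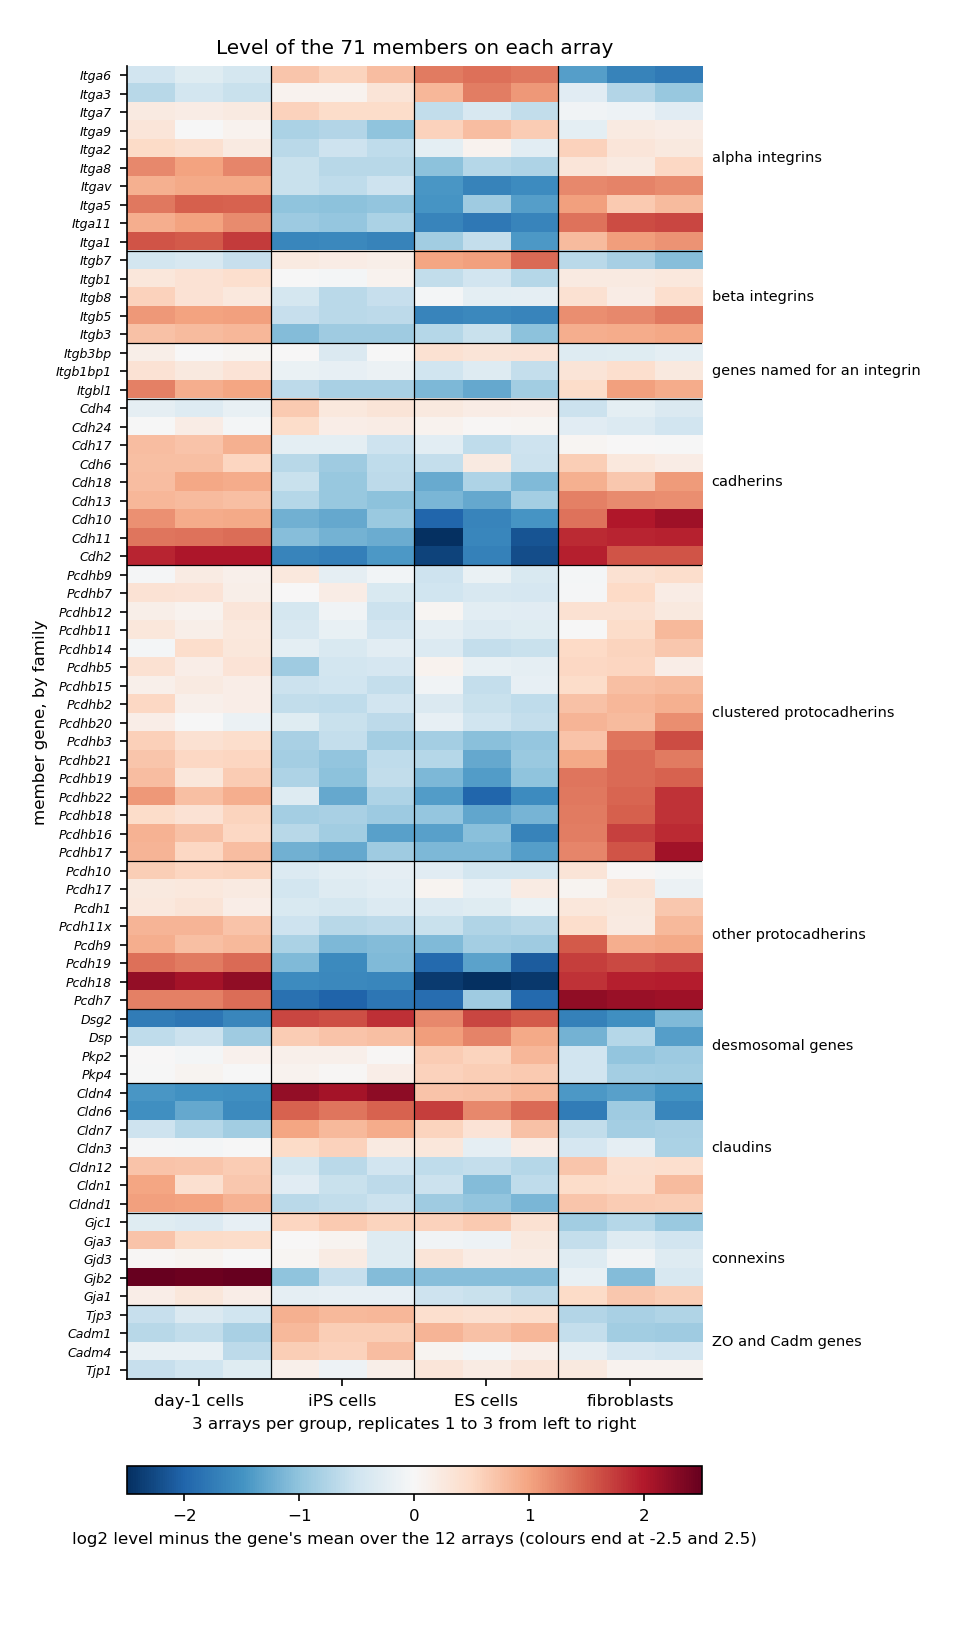
Log2 level of each of the 71 members (rows, grouped by family) in the 12 arrays (columns: day-1, iPS, ES, fibroblast), drawn as the difference from the member's own mean over the arrays; colours are in log2 units and end at -2.5 and 2.5. The beta-cluster protocadherins, most cadherins and most other protocadherins were high in fibroblasts and day-1 cells. Dsg2, Dsp, Cldn4, Cldn6 and Cldn7 were high in iPS and ES cells. The other desmosomal genes, Pkp2 and Pkp4, were lowest in fibroblasts, with day-1 cells close to iPS cells.

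Among the integrins, most receptors for collagen and for proteins with the RGD motif were called lower in the pluripotent lines, and the laminin receptor Itga6 was called higher in both. Of the 3 collagen-binding alpha subunits, 2 fell in each line, Itga1 and Itga11, and of the 3 that bind RGD proteins, Itgav and Itga5 fell in iPS cells and Itga8 as well in ES cells. Itga11, a collagen receptor of mesenchymal cells, had log2 values of 8.80, 8.89 and 9.06 in day-1 cells, 6.97, 6.92 and 7.10 in iPS cells, 6.23, 6.10 and 6.24 in ES cells, against 9.25, 9.52 and 9.56 in fibroblasts. Its difference was -2.45 ± 0.10 (SE) in iPS cells and -3.26 ± 0.10 in ES cells (limma adjusted p = 4.3e-11 and 2.4e-12). The 4 groups of arrays did not overlap, and ES cells were lowest. Itga1, the other collagen receptor called, had log2 values of 8.81, 8.78 and 8.99 in day-1 cells, 5.60, 5.62 and 5.56 in iPS cells, 6.37, 6.64 and 5.81 in ES cells, against 8.02, 8.29 and 8.37 in fibroblasts. It was lowest in iPS cells, -2.63 ± 0.16 from fibroblasts, and -1.95 ± 0.16 in ES cells, or -2.14 without ES replicate 2.

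Itgav, the alpha subunit of the vitronectin receptors, had log2 values of 11.35, 11.40 and 11.41 in day-1 cells, 9.89, 9.82 and 9.94 in iPS cells, 9.0, 8.78 and 8.88 in ES cells, against 11.66, 11.70 and 11.63 in fibroblasts. It fell by 1.78 ± 0.07 in iPS cells and by 2.78 ± 0.07 in ES cells on the log2 scale. Its partner Itgb5 moved alongside, with log2 values of 11.48, 11.41 and 11.42 in day-1 cells, 9.83, 9.72 and 9.75 in iPS cells, 8.75, 8.79 and 8.75 in ES cells, against 11.57, 11.61 and 11.71 in fibroblasts. The Itgb5 differences were -1.87 ± 0.06 in iPS cells and -2.87 ± 0.06 in ES cells (limma adjusted p = 1.2e-11 and 2.5e-13), and no groups overlapped between the lines and fibroblasts. Itgb3, another of the beta subunits that pair with Itgav, fell by 1.89 in iPS cells and by 1.70 in ES cells (-1.80 without ES replicate 2). Itga5, the fibronectin receptor subunit, differed by -1.82 ± 0.13 in iPS cells and by -2.07 ± 0.13 in ES cells. Without ES replicate 2, where Itga5 was highest of the ES arrays, the ES difference was -2.24. Itga8, whose ligands include nephronectin, differed by -1.0 in iPS cells, just under the minimum for a call, and fell by 1.19 in ES cells, where centring the arrays on a common median left -0.84 and no call.

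Itga6, a laminin receptor subunit long used as a surface marker of pluripotent and basal epithelial cells, had log2 values of 8.38, 8.56 and 8.42 in day-1 cells, 9.56, 9.42 and 9.64 in iPS cells, 10.16, 10.24 and 10.19 in ES cells, against 7.49, 7.19 and 7.10 in fibroblasts. The groups stood in the order ES, iPS, day-1 and fibroblast with no overlap between neighbours. Relative to fibroblasts it rose by 2.28 ± 0.10 in iPS cells, 4.85-fold, and by 2.93 ± 0.10 in ES cells, 7.65-fold (limma adjusted p = 1.1e-10 and 7.6e-12). Itga3, which also binds laminins, rose in ES cells (1.72 ± 0.16) and reached 0.82 in iPS cells, under the minimum, or 1.08 and called with arrays centred. Itga7, the laminin receptor subunit of muscle, differed by 0.67 in iPS cells and by -0.38 in ES cells, neither past the minimum.

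Itgb7, the beta subunit of lymphocyte homing receptors, rose in both lines, with log2 values of 6.03, 6.09 and 5.93 in day-1 cells, 6.72, 6.68 and 6.64 in iPS cells, 7.49, 7.53 and 7.92 in ES cells, against 5.83, 5.67 and 5.43 in fibroblasts. The difference was 2.0 ± 0.12 in ES cells and 1.03 ± 0.12 in iPS cells, and without fibroblast replicate 3 the iPS difference was 0.92 and no longer called. Itgb1, the common partner of most of these alpha subunits, was not called in any comparison. It had log2 values of 11.44, 11.53 and 11.58 in day-1 cells, 11.16, 11.11 and 11.26 in iPS cells, 10.55, 10.68 and 10.46 in ES cells, against 11.39, 11.38 and 11.42 in fibroblasts. Its difference was -0.83 ± 0.07 in ES cells and -0.21 ± 0.07 in iPS cells, where the sign turned with arrays centred on a common median (0.04) or quantile normalized (0.07). Itgb8 was not called, with differences of -0.90 in iPS cells and -0.50 in ES cells. Of the genes named for an integrin, Itgbl1, a secreted protein with repeats like those of beta subunits, fell in iPS cells (-1.56 ± 0.15) and in ES cells (-1.90 ± 0.15). Itgb1bp1, which binds the tail of the beta 1 subunit, and Itgb3bp, also known as a centromere protein, stayed under the minimum, with differences between -0.81 and 0.64.

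Of 36 listed genes that couple integrins to actin, 28 were measured. None rose and 16 fell in iPS cells, and 1 rose and 17 fell in ES cells, with medians of -1.19 and -1.47 beside -0.35 over all genes. The parvin Parva, which binds integrin-linked kinase, differed by -3.34 ± 0.11 in iPS cells and by -4.37 ± 0.11 in ES cells. Tgfb1i1, a paxillin relative, differed by -3.18 and -3.52 in the same order, and the caveolin Cav1 by -2.66 and -4.69. The tensin Tns3 was the member that rose in ES cells (1.33 ± 0.07).

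**Figure D2:**
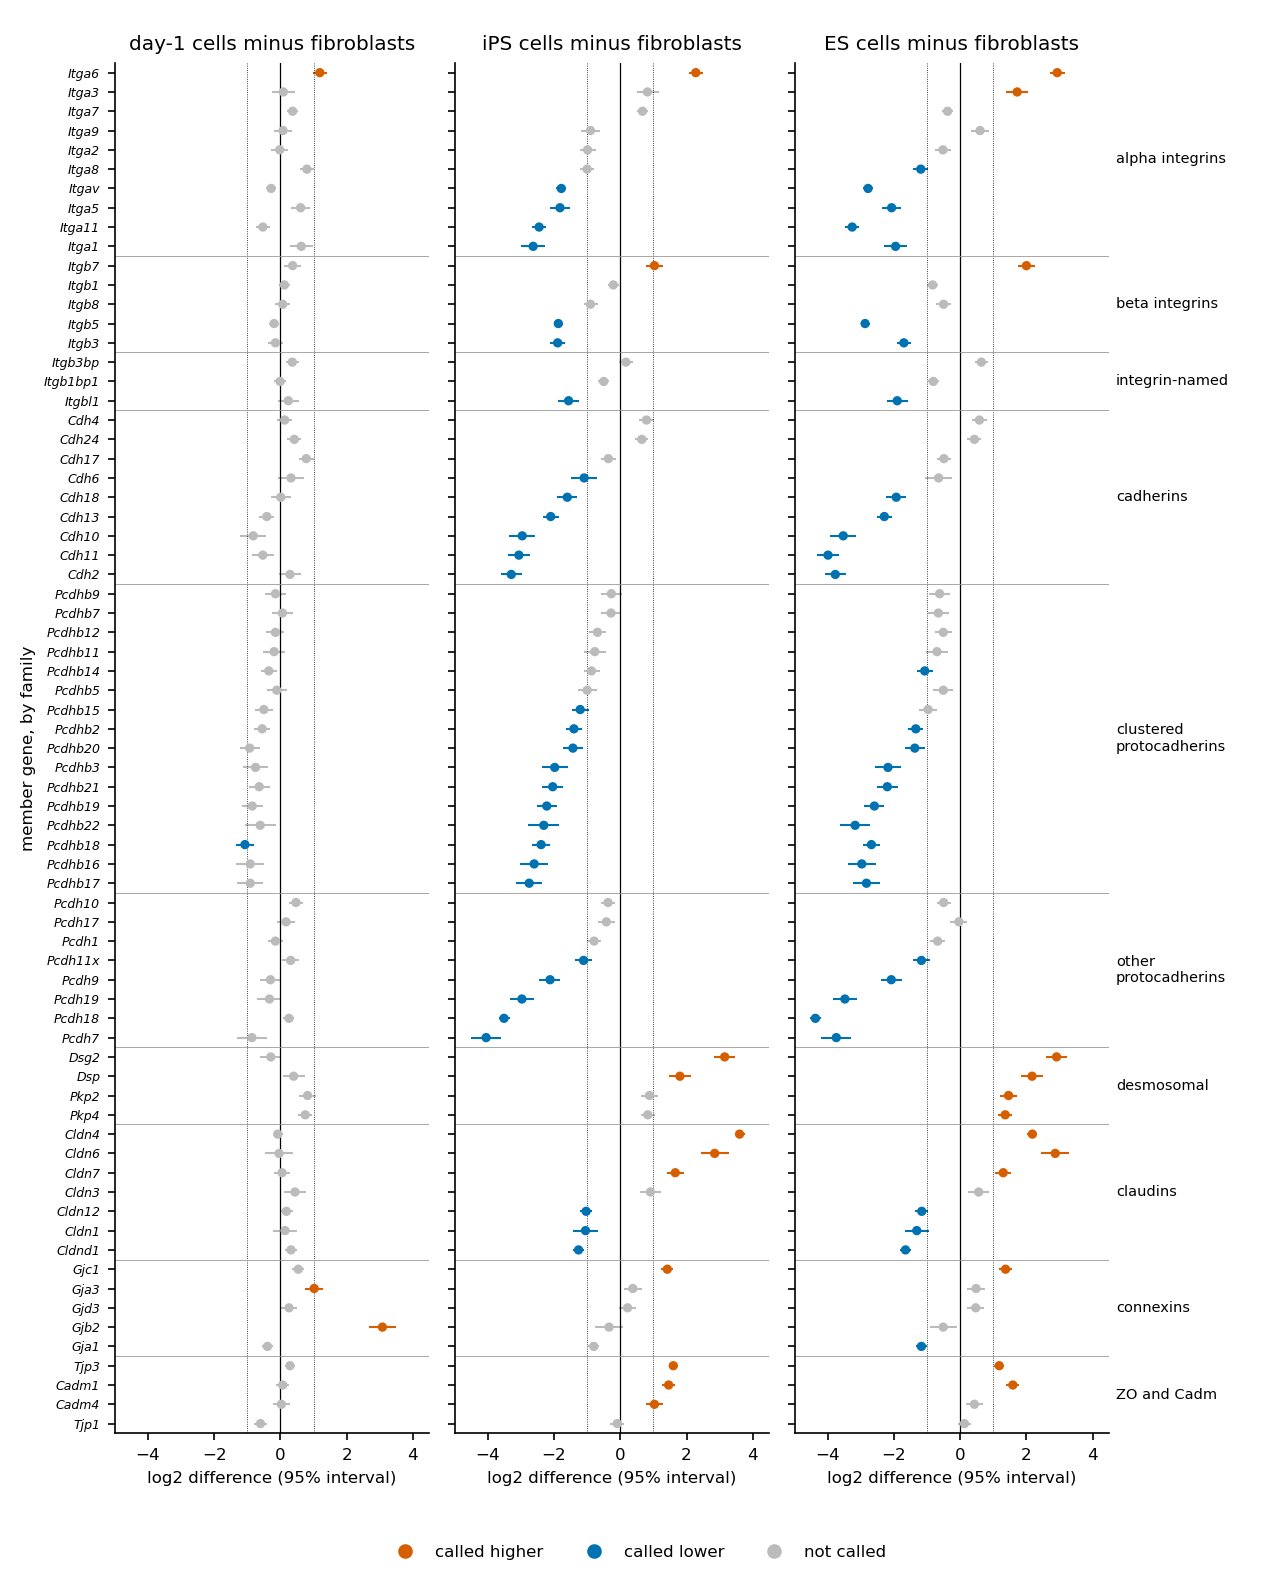
Log2 difference from fibroblasts of each member (points, 95% intervals) in day-1, iPS and ES cells, by family; dotted lines mark the minimum of 1 for a call. In day-1 cells 4 points pass a dotted line with a call, Gjb2 at 3.08, Itga6 at 1.19, Gja3 at 1.02 and Pcdhb18 at -1.07, while iPS and ES points spread from -4.37 for Pcdh18 to 3.60 for Cldn4.

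Most cadherins measured were called lower in the pluripotent lines. Of the 9 measured none rose, while 6 fell in iPS cells and 5 in ES cells. With arrays centred on a common median, Cdh4 was called higher in iPS cells (1.04) and Cdh6 was no longer called there (-0.84). Cdh2, N-cadherin of mesenchymal and neural cells, had log2 values of 11.24, 11.36 and 11.37 in day-1 cells, 7.70, 7.64 and 7.90 in iPS cells, 7.04, 7.65 and 7.13 in ES cells, against 11.28, 10.92 and 10.91 in fibroblasts. The day-1 arrays and the fibroblasts lay together, and the pluripotent lines lay far below both. The difference was -3.29 ± 0.15 in iPS cells, 9.78-fold lower, and -3.77 ± 0.15 in ES cells, 13.6-fold lower (limma adjusted p = 1.3e-10 and 2.6e-11). Cdh11, the cadherin of mesenchyme and osteoblasts, had log2 values of 11.90, 11.91 and 11.95 in day-1 cells, 9.49, 9.37 and 9.31 in iPS cells, 8.06, 8.93 and 8.39 in ES cells, against 12.42, 12.45 and 12.48 in fibroblasts. It was lower in both lines, by -3.06 in iPS cells and -3.99 in ES cells, with SE 0.16 for each. Without ES replicate 2, the highest of its ES arrays, the ES difference was -4.23, and that of Cdh2 was -3.95.

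Cdh10, a type II cadherin best known in brain, had log2 values of 7.80, 7.58 and 7.59 in day-1 cells, 5.44, 5.37 and 5.73 in iPS cells, 4.67, 5.0 and 5.17 in ES cells, against 8.0, 8.66 and 8.77 in fibroblasts. It was 7.8-fold lower in iPS cells and 11.6-fold lower in ES cells, with differences of -2.96 ± 0.18 and -3.53 ± 0.18. Cdh13, the cadherin that is held by a lipid anchor instead of a membrane span, fell by 2.10 in iPS cells and by 2.29 in ES cells. Cdh18, another type II cadherin, fell by 1.60 in iPS cells and by 1.93 in ES cells (-2.07 without ES replicate 2). Cdh6, known in kidney and neural crest, fell in iPS cells (-1.09 ± 0.18) and differed by -0.65 in ES cells, where replicate 2 read 6.88 and the others 6.06 and 6.12. Without fibroblast replicate 1 the iPS value of Cdh6 was -0.97 and not called, and without ES replicate 2 its ES value was -0.91. Cdh4, Cdh17 and Cdh24 were not called in either line, and Cdh4 (0.79 in iPS cells, 0.58 in ES cells) and Cdh24 (0.65 and 0.43) lay above fibroblasts with no overlap. Of the cadherins left out of the rule, Cdh1, E-cadherin, averaged 10.95 in iPS cells, 10.91 in ES cells and 6.10 in fibroblasts, and Cdh3, P-cadherin, averaged 7.50, 8.40 and 8.52 in that order.

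Of 18 listed catenins and nectins, 7 were measured. In iPS cells 2 rose and 2 fell, and in ES cells 3 rose and 1 fell. The alpha-catenin relative Ctnnal1 rose most, by 2.77 ± 0.12 in iPS cells and by 2.93 ± 0.12 in ES cells, and Ctnna1, which ties cadherins to actin, rose by 1.23 and 1.24 in the same order. Pvr, a nectin-like protein, differed by -1.03 in iPS cells and -2.14 in ES cells.

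Protocadherins outside the gene clusters included the steepest differences of the whole set. Of 8 measured none rose, and 5 fell in each line. Pcdh18 had log2 values of 10.49, 10.37 and 10.52 in day-1 cells, 6.73, 6.68 and 6.67 in iPS cells, 5.90, 5.70 and 5.88 in ES cells, against 10.11, 10.23 and 10.26 in fibroblasts. The lines did not overlap with each other or with fibroblasts, and ES cells were lowest. It was 11.4-fold lower in iPS cells (-3.51 ± 0.08) and 20.7-fold lower in ES cells (-4.37 ± 0.08; limma adjusted p = 5.2e-14). Pcdh7 had log2 values of 9.64, 9.63 and 9.76 in day-1 cells, 6.51, 6.38 and 6.56 in iPS cells, 6.47, 7.49 and 6.42 in ES cells, against 10.58, 10.54 and 10.49 in fibroblasts. Its difference was -4.05 ± 0.21 in iPS cells and -3.74 ± 0.21 in ES cells. Without ES replicate 2, which lay above the other ES arrays, the ES value was -4.09. Pcdh19, whose human gene is linked to an epilepsy, had log2 values of 9.29, 9.22 and 9.34 in day-1 cells, 6.82, 6.32 and 6.81 in iPS cells, 5.98, 6.58 and 5.84 in ES cells, against 9.65, 9.57 and 9.62 in fibroblasts. It differed by -2.97 ± 0.17 in iPS cells and by -3.48 ± 0.17 in ES cells, or -3.71 without ES replicate 2. Pcdh9 fell by 2.12 in iPS cells and by 2.08 in ES cells. Pcdh11x fell by 1.11 in iPS cells, -0.95 and not called without fibroblast replicate 3, and by 1.17 in ES cells, and neither was called with arrays centred (-0.86 in iPS cells, -0.82 in ES cells). Pcdh1, Pcdh10 and Pcdh17 stayed under the minimum, with values from -0.79 to -0.04.

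The beta-cluster protocadherins are a row of similar genes, each with its own promoter, known for giving neurons distinct surface identities. Of the 22 in the RefSeq cluster, 16 were in the table, and their probe sets may read near-identical neighbours, so single members are uncertain. Each of the 16 lay below fibroblasts in iPS and in ES cells, with medians of -1.41 and -1.36, and 10 were called lower in each line. With arrays centred, Pcdhb15 was no longer called in iPS cells (-0.95). In ES cells Pcdhb2 (-0.997) and Pcdhb14 (-0.72) were then not called. Their mean log2 level was 5.48 to 5.60 on day-1 arrays, 4.53 to 4.61 on iPS arrays, 4.35 to 4.54 on ES arrays and 5.86 to 6.23 on fibroblast arrays. These are dim probe sets, and 0 of the 16 were left when the dimmest 25% of genes were dropped. Pcdhb22, with the lowest called difference of the cluster, had log2 values of 6.99, 6.65 and 6.81 in day-1 cells, 5.57, 4.63 and 5.13 in iPS cells, 4.5, 3.92 and 4.33 in ES cells, against 7.21, 7.35 and 7.71 in fibroblasts. It differed by -2.31 ± 0.21 in iPS cells and by -3.17 ± 0.21 in ES cells, and the iPS arrays spread more than those of other groups.

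**Figure D3:**
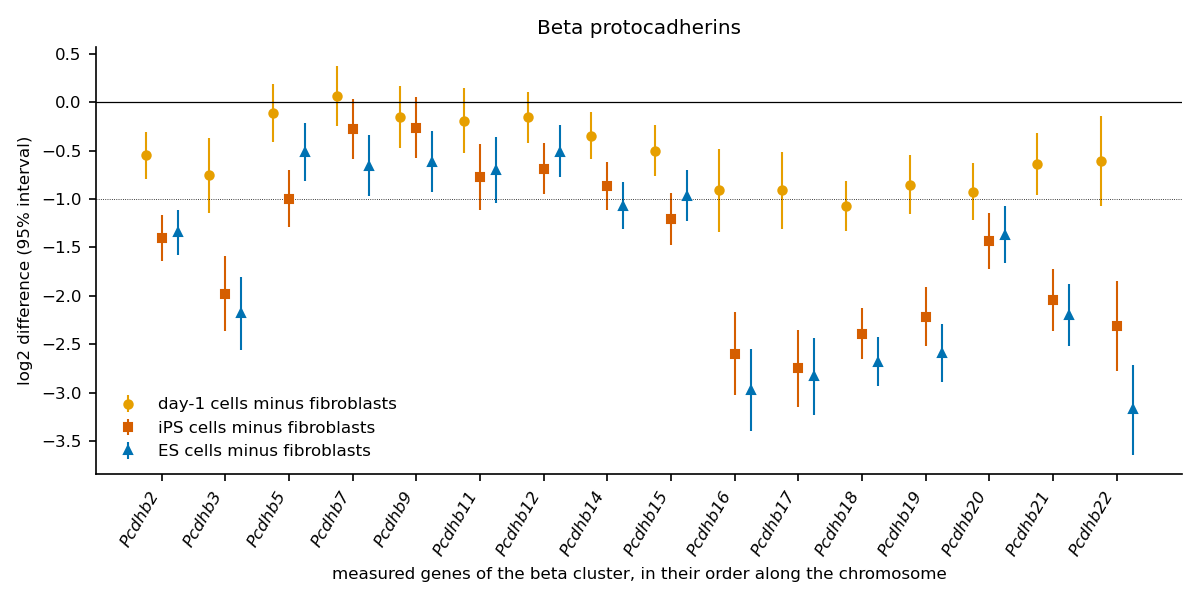
Log2 difference from fibroblasts (vertical axis, 95% intervals) of the 16 measured beta-cluster protocadherins in their order along the cluster (horizontal axis), in day-1, iPS and ES cells. Genes from Pcdhb16 on lie lower than those from Pcdhb5 to Pcdhb14, down to -3.17 for Pcdhb22 in ES cells.

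In each of the 3 comparisons with fibroblasts, the genes from Pcdhb16 to Pcdhb22 lay lower than those from Pcdhb5 to Pcdhb14, while Pcdhb3, nearer the start, lay lower than Pcdhb20 in iPS and ES cells. In iPS cells Pcdhb9 differed by -0.27 and Pcdhb7 by -0.28, while Pcdhb17 differed by -2.75 ± 0.18, Pcdhb16 by -2.60 ± 0.20 and Pcdhb18 by -2.39 ± 0.12. Over the 16 genes the Spearman correlation of position with difference was -0.60 in the day-1 comparison, -0.59 in that of iPS cells and -0.64 in that of ES cells. The fibroblast level of a gene correlated with its difference at -0.65, -0.85 and -0.83 in the same order, and since that level also enters the difference, the 2 relations are descriptions over genes that share arrays and probe brightness.

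Called desmosomal genes were higher in the lines. Of 4 measured none fell, while 2 rose in iPS cells and 4 in ES cells. Dsg2, the desmosomal cadherin of simple epithelia, had log2 values of 5.19, 5.13 and 5.31 in day-1 cells, 8.62, 8.55 and 8.78 in iPS cells, 8.14, 8.62 and 8.48 in ES cells, against 5.26, 5.41 and 5.84 in fibroblasts. It was 8.85-fold higher in iPS cells (3.15 ± 0.15) and 7.51-fold higher in ES cells (2.91 ± 0.15; limma adjusted p = 3e-10). Dsp, desmoplakin, which ties desmosomes to keratin, had log2 values of 5.92, 6.03 and 5.66 in day-1 cells, 7.19, 7.27 and 7.32 in iPS cells, 7.61, 7.80 and 7.51 in ES cells, against 5.37, 5.84 and 5.18 in fibroblasts. It rose by 1.80 ± 0.15 in iPS cells and by 2.17 ± 0.15 in ES cells, with no overlap with fibroblasts. Dsg2 and Dsp were both among the members dropped with the dimmest 25% of genes. The plakophilins Pkp2 and Pkp4 rose in ES cells, by 1.46 ± 0.12 and 1.36 ± 0.10, and stayed under the minimum in iPS cells at 0.88 and 0.83. In iPS cells both were called after quantile normalization (1.12 for Pkp2, 1.07 for Pkp4) and with arrays centred (1.13 and 1.09), and each of the 4 desmosomal genes was then called higher. Pkp4 had log2 values of 9.17, 9.26 and 9.17 in day-1 cells, 9.28, 9.22 and 9.36 in iPS cells, 9.77, 9.81 and 9.84 in ES cells, against 8.71, 8.34 and 8.31 in fibroblasts. Day-1 cells and iPS cells lay close together for Pkp4, between ES cells and fibroblasts. Of 9 listed desmosome partners and keratins, 3 were measured and 3 rose in each line, the keratins Krt8 (1.49 in iPS cells, 1.43 in ES cells) and Krt18 (1.27 and 1.16) and the desmosomal tetraspan protein Perp (1.28 and 1.82). Of 10 markers of keratinocytes and simple epithelia, 4 were measured and 4 rose in each line (Krt8 and Krt18 among them), with a summed linear level of 527 to 599 in iPS cells, 912 to 981 in ES cells and 188 to 225 in fibroblasts. Whether a share of such cells bears on the desmosomal and claudin values was not tested.

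The claudins split by member. Of 7 genes, 3 rose and 3 fell in each line, a split that depended on scaling. With arrays centred on a common median, Cldn1 (-0.80 in iPS cells, -0.97 in ES cells) and Cldn12 (-0.78 and -0.81) were no longer called and Cldn3 was called higher in iPS cells (1.16). After quantile normalization Cldn12 was not called either (-0.81 and -0.86), and Cldn3 was called in iPS cells (1.02). Cldn4, Cldn6 and Cldn7, claudins of epithelia and, for Cldn6, of pluripotent cells, rose, and Cldn1, Cldn12 and the claudin-domain gene Cldnd1 fell. The promoters of the claudins called higher are shown because these genes moved together in both lines. Sequences are from RefSeq, build GRCm38.p6, 250 bases before to 50 after the start, with CACCTG or CAGGTG (E-box) and GGGCGG or CCGCCC (GC box) in capitals. Cldn4 is read on the minus strand at chr5:134946885-134947184, Cldn6 on the plus strand at chr17:23679115-23679414, and Cldn7, at the second of its 2 listed starts, on the plus strand at chr11:69965171-69965470.
Cldn4: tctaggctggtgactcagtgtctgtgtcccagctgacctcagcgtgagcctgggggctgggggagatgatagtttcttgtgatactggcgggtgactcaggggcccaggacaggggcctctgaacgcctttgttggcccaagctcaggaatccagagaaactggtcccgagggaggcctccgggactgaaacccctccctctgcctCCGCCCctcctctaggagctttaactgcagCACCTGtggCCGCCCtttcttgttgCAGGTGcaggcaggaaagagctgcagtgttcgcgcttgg
Cldn6: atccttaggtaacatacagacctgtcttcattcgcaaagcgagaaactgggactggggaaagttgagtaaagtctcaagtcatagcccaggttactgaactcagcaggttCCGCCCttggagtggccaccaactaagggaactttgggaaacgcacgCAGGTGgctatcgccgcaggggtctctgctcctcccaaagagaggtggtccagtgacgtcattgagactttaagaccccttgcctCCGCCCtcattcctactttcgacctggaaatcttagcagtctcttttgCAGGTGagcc
Cldn7: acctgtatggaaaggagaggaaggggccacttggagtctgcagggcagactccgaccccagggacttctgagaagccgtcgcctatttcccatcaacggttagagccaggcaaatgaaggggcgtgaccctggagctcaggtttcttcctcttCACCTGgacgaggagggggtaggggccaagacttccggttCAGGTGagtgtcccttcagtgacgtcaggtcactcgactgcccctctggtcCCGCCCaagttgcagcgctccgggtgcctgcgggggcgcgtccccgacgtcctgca

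Each of these 3 windows held 2 E-boxes, and the first listed start of Cldn7 held 0. RefSeq promoters were at hand for 40 of the 71 members. Of the members that rose in iPS cells 7 had one, and 6 of these held an E-box (Cadm4, Cldn4, Cldn6, Cldn7, Dsp and Tjp3, but not Itgb7), 77.8% of their promoters. Of those that fell 16 had one and 3 held it (Itga11, Itgb5 and Pcdh7), 15.8% of promoters. Over all 40 members with a promoter 16 held it, the uncalled Cldn3 among them, or 35.4% of promoters. The motif, searched on both strands with overlaps allowed, was in 17.9% of promoters of the genes of the table and in 20.2% of all promoters of that length. The GC box was in 55.6% of the promoters of members that rose, 52.6% of those that fell and 61.9% of those of the table. The sets were split by calls already known and no difference between them was tested. A match is a description of letters and not a bound site.

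Cldn4 had log2 values of 6.71, 6.65 and 6.63 in day-1 cells, 10.37, 10.25 and 10.41 in iPS cells, 8.87, 8.89 and 8.99 in ES cells, against 6.74, 6.81 and 6.67 in fibroblasts. Day-1 cells overlapped with fibroblasts, ES cells lay well above both and iPS cells highest. The difference was 3.60 ± 0.07 in iPS cells, 12.1-fold higher, and 2.18 ± 0.07 in ES cells, 4.52-fold higher (limma adjusted p = 1.6e-13 and 4.4e-12). Cldn6 had log2 values of 5.52, 5.78 and 5.46 in day-1 cells, 8.53, 8.39 and 8.53 in iPS cells, 8.78, 8.26 and 8.46 in ES cells, against 5.30, 6.17 and 5.42 in fibroblasts. Here iPS and ES arrays overlapped, with differences of 2.85 ± 0.19 and 2.87 ± 0.19 from fibroblasts. Cldn7 had log2 values of 5.77, 5.59 and 5.42 in day-1 cells, 7.27, 7.10 and 7.23 in iPS cells, 6.85, 6.64 and 7.03 in ES cells, against 5.68, 5.45 and 5.49 in fibroblasts. It rose by 1.66 ± 0.11 in iPS cells and by 1.30 ± 0.11 in ES cells. Cldn3, another epithelial claudin, was not called, at 0.91 in iPS cells and 0.56 in ES cells.

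Cldnd1, a claudin-like membrane protein, had log2 values of 11.59, 11.57 and 11.44 in day-1 cells, 9.90, 9.95 and 10.03 in iPS cells, 9.69, 9.59 and 9.42 in ES cells, against 11.27, 11.20 and 11.18 in fibroblasts. It fell by 1.26 in iPS cells and by 1.65 in ES cells, with SE 0.08 for each. Cldn12 fell by 1.03 in iPS cells and by 1.16 in ES cells, and Cldn1, the claudin of skin, by 1.05 and 1.31 in the same order. These 2 calls were close to the minimum. In iPS cells Cldn12 was at -0.96 without iPS replicate 2 and at -0.94 without fibroblast replicate 1, and Cldn1 was at -0.97 without iPS replicate 3 and at -0.94 without fibroblast replicate 3.

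Among scaffolds and other genes of the tight junction, most of those called were higher in the lines. Tjp3, a zonula occludens scaffold of epithelia, had log2 values of 6.61, 6.83 and 6.70 in day-1 cells, 8.08, 8.0 and 8.02 in iPS cells, 7.62, 7.58 and 7.61 in ES cells, against 6.47, 6.38 and 6.44 in fibroblasts. It rose by 1.60 ± 0.07 in iPS cells and by 1.18 ± 0.07 in ES cells, without overlap with fibroblasts. Tjp1, the scaffold that most cells express, was not called in either line (-0.09 in iPS cells and 0.13 in ES cells). Of 27 other tight junction genes listed, 18 were measured, with 9 higher and 1 lower in iPS cells and 7 higher and 2 lower in ES cells. Ildr1, of contacts where 3 cells meet, rose by 3.03 ± 0.13 in iPS cells and by 2.51 ± 0.13 in ES cells. The junctional adhesion molecules F11r (2.03 in iPS cells, 2.14 in ES cells) and Jam2 (2.01 and 2.34) rose too, and the polarity gene Pard6g fell (-1.51 and -2.14).

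The nectin-like adhesion genes Cadm1 and Cadm4 rose in iPS cells. Cadm1, which also marks synapses and spermatogenic cells, had log2 values of 6.60, 6.69 and 6.5 in day-1 cells, 8.12, 7.91 and 7.91 in iPS cells, 8.15, 8.04 and 8.14 in ES cells, against 6.70, 6.44 and 6.42 in fibroblasts. The lines overlapped with each other, and the differences from fibroblasts were 1.46 ± 0.09 in iPS cells and 1.59 ± 0.09 in ES cells. Cadm4 had log2 values of 6.72, 6.72 and 6.25 in day-1 cells, 7.52, 7.48 and 7.68 in iPS cells, 6.98, 6.86 and 7.04 in ES cells, against 6.67, 6.49 and 6.43 in fibroblasts. Its iPS difference of 1.03 ± 0.12 was called, at 0.97 without iPS replicate 3 and 0.98 without fibroblast replicate 3 it was not, and its ES difference was 0.43. Of 18 listed adhesion molecules of the immunoglobulin type, 9 were measured, with 4 higher and 4 lower in each line, led by Epcam (5.09 in iPS cells, 5.26 in ES cells) and Vcam1 (-3.69 and -4.51). The 1 pannexin measured, of 3 listed, was not called.

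**Figure D4:**
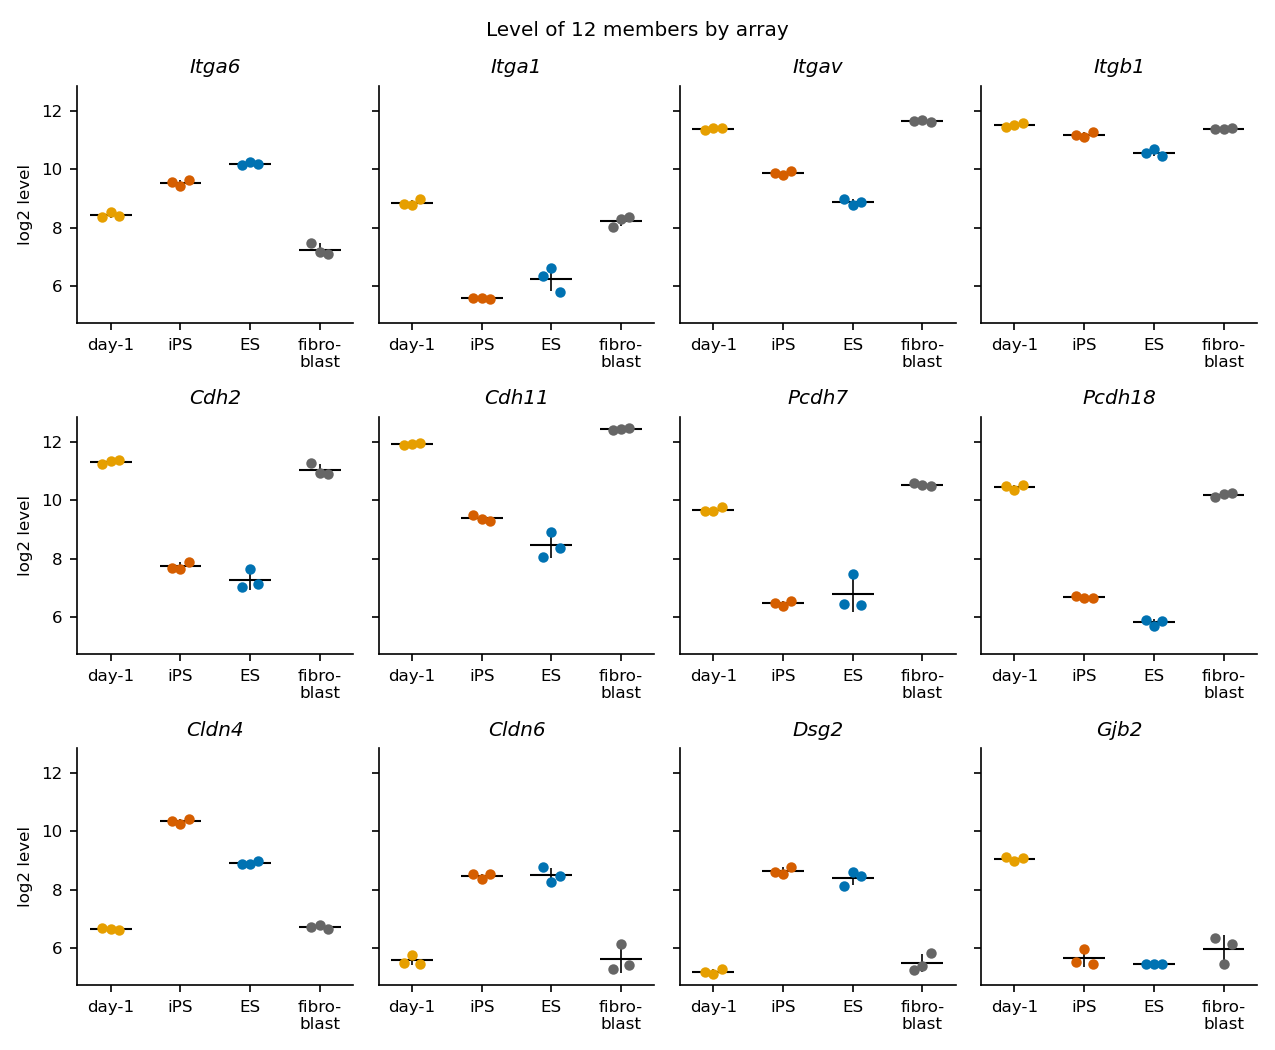
Log2 level (vertical axes) of 12 members on each array, with points for arrays, a horizontal bar for the mean of each group and a vertical one for the SD (n = 3) (left to right: day-1, iPS, ES, fibroblast). Gjb2 is high in day-1 cells, at 9.0 to 9.13, and Cldn4 in iPS cells, at 10.25 to 10.41, while Cdh2 and Pcdh18 are low in both pluripotent lines.

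Connexins differed in the group with the highest mean, which was day-1 cells for 2 and each other group for 1. Of 5 measured, 1 rose and none fell in iPS cells, and 1 rose and 1 fell in ES cells. Gjc1, a connexin of early embryo and heart, had log2 values of 8.69, 8.65 and 8.80 in day-1 cells, 9.54, 9.65 and 9.56 in iPS cells, 9.57, 9.65 and 9.39 in ES cells, against 8.14, 8.29 and 8.08 in fibroblasts. The lines overlapped with each other above day-1 cells, and fibroblasts were lowest. The difference was 1.42 ± 0.08 in iPS cells and 1.37 ± 0.08 in ES cells. Gja1, the most widely expressed connexin, had log2 values of 11.07, 11.18 and 11.06 in day-1 cells, 10.68, 10.69 and 10.70 in iPS cells, 10.39, 10.35 and 10.23 in ES cells, against 11.38, 11.57 and 11.52 in fibroblasts. It fell in ES cells (-1.17 ± 0.07) and differed by -0.80 ± 0.07 in iPS cells, under the minimum. The ES value of Gja1 was not called when arrays were centred (-0.82) or quantile normalized (-0.93). Gjd3 was not called in any comparison.

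In day-1 cells against fibroblasts, doxycycline, the ES medium and the source of the fibroblasts differ together and cannot be told apart. Of all genes, 7.79% were called, 3.46% higher and 4.33% lower, and of the members 3 rose and 1 fell, with a median of 0.05 beside 0.05 over all genes. The groups did not overlap for 43 members, beside 67.3% of all genes. For 57 members the 95% interval lay within 2-fold of fibroblasts, 80.3% beside 86.2% of all genes.

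Gjb2, the connexin of the inner ear and skin whose human gene is the commonest site of inherited deafness, had log2 values of 9.13, 9.0 and 9.08 in day-1 cells, 5.54, 5.97 and 5.46 in iPS cells, 5.48, 5.48 and 5.48 in ES cells, against 6.37, 5.46 and 6.16 in fibroblasts. Day-1 cells stood apart from each of the other groups. It was 8.43-fold higher in day-1 cells than in fibroblasts, a difference of 3.08 ± 0.19 (limma adjusted p = 4.2e-08), and in iPS cells it lay -3.41 from day-1 cells and -0.34 from fibroblasts. Its fibroblast arrays ran over 5.46 to 6.37, with an SD of 0.48 that was the highest of the 71 members in that group. By its mean over the arrays, Gjb2 was among the members dropped with the dimmest 25% of genes. Its RefSeq promoter, shown because this member alone rose by over 3 on the log2 scale in day-1 cells, lies on the minus strand at chr14:57104653-57104952 of GRCm38.p6, with 1 E-box and 2 GC boxes in capitals.
Gjb2: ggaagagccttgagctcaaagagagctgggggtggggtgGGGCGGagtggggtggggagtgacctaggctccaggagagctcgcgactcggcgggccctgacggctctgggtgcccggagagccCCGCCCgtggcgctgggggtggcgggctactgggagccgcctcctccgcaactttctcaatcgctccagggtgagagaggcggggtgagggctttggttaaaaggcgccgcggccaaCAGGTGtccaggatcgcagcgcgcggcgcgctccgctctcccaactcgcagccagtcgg

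Itga6 rose in day-1 cells by 1.19 ± 0.10, with its day-1 level between those of iPS cells and fibroblasts. It was not called there with limma's treat, which tests against the minimum. Gja3, the lens connexin, had log2 values of 7.21, 6.96 and 6.95 in day-1 cells, 6.5, 6.55 and 6.17 in iPS cells, 6.40, 6.36 and 6.73 in ES cells, against 5.89, 6.16 and 6.01 in fibroblasts. Gja3 rose by 1.02 ± 0.13 in day-1 cells. The call was lost at 0.93 without day-1 replicate 1, at 0.95 without fibroblast replicate 1 and at 0.87 after quantile normalization. It was also lost with array weights (0.97) and with treat. Of 4 neural and glial markers, whose summed linear level was 2150 to 2190 in day-1 cells and 316 to 405 in fibroblasts, 3 rose in day-1 cells, and of 7 muscle markers, at 20600 to 21200 in day-1 cells and 15500 to 18000 in fibroblasts, 4 rose. Of the leukocyte markers 1 rose and 3 fell, of the endothelial markers 1 fell, and of the fibroblast markers 3 fell. The part of these cell types in the day-1 values was not tested. The cell adhesion molecule Mcam of the immunoglobulin list rose as well (2.20 ± 0.14), and of the tight junction list Cgnl1 fell (-1.23 ± 0.10).

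In the beta cluster, 15 of 16 protocadherins lay below fibroblasts in day-1 cells, with a median of -0.58. By adjusted p alone, with no minimum, 11 were lower and 0 higher. By that rule 21 of the 71 members were higher and 20 lower, beside 31.1% and 26.0% of all genes. Pcdhb18 was the member called, with log2 values of 5.35, 5.26 and 5.45 in day-1 cells, 4.05, 4.09 and 3.98 in iPS cells, 3.93, 3.60 and 3.73 in ES cells, against 6.20, 6.38 and 6.71 in fibroblasts and a difference of -1.07 ± 0.12. Without fibroblast replicate 3 it was at -0.93 and no member was called lower. With limma's treat no member was called lower either. Without fibroblast replicate 1 there were 5 called lower (Pcdhb18 with Cdh10, Pcdhb3, Pcdhb16 and Pcdhb17), and Pcdhb20 joined Pcdhb18 without day-1 replicate 1 or without fibroblast replicate 2.

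In iPS cells against day-1 cells, 8 members rose and 31 fell, where 44.2% of all genes were called, 17.6% higher and 26.6% lower. Groups did not overlap for 64 members, beside 94.0% of all genes, and by adjusted p alone 17 members were higher and 49 lower, beside 40.9% and 51.9%. The median difference was -0.85 beside -0.34 over all genes. With arrays centred on a common median the members split into 10 higher and 27 lower, and 55.3% of all-gene calls were higher, beside 39.8% as deposited. The highest differences were those of Cldn4 (3.68 ± 0.07), Dsg2 (3.44 ± 0.15), Cldn6 (2.89 ± 0.19), Cldn7 (1.61), Dsp (1.39) and Cadm1 (1.39), each of which lay between -0.29 and 0.40 of fibroblasts in day-1 cells. The lowest were those of Pcdh18 (-3.77 ± 0.08), Cdh2 (-3.58 ± 0.15), Gjb2 (-3.41 ± 0.19) and Itga1 (-3.27 ± 0.16). Cdh17, the cadherin of liver and intestine, was called lower in this comparison (-1.14 ± 0.10), with a day-1 value 0.78 above fibroblasts that stayed under the minimum, and with arrays centred it was at -0.88 and not called.

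The iPS and ES lines lay within 2-fold of each other for most members, as they did for most genes. They differ in line, passage and strain together, which cannot be told apart. Of all genes, 6.9% were called, 4.44% higher and 2.45% lower in iPS cells, and of the members 3 were higher and 1 lower. With arrays centred on a common median the member split was 1 higher and 2 lower, and after quantile normalization 3 and 2. For 59 members the interval lay within 2-fold, 83.1% beside 86.9% of all genes, and the groups did not overlap for 37 members, beside 61.5% of all genes. By adjusted p alone 20 members were higher and 13 lower in iPS cells, beside 30.0% and 27.7% of all genes.

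Cldn4 was 2.69-fold higher in iPS than in ES cells, a difference of 1.43 ± 0.07 (limma adjusted p = 1.1e-08), with iPS arrays at 10.25 to 10.41 and ES arrays at 8.87 to 8.99. Itga9, whose ligands include tenascin, had log2 values of 7.88, 7.57 and 7.67 in day-1 cells, 6.79, 6.84 and 6.56 in iPS cells, 8.14, 8.34 and 8.20 in ES cells, against 7.32, 7.80 and 7.76 in fibroblasts. It was 2.82-fold lower in iPS than in ES cells (-1.5 ± 0.13), with iPS cells below and ES cells above fibroblasts. Itga7 had log2 values of 6.72, 6.70 and 6.72 in day-1 cells, 7.09, 6.97 and 6.97 in iPS cells, 5.89, 6.10 and 5.88 in ES cells, against 6.42, 6.38 and 6.22 in fibroblasts. It was higher in iPS than in ES cells by 1.05 ± 0.08, or 0.96 and not called with arrays centred. Itgav was higher by 1.0 ± 0.07, at the minimum, and lost its call, at 0.95 to 1.0, without iPS replicate 1, iPS replicate 3, ES replicate 2 or ES replicate 3. It was also not called with arrays centred (0.91), with array weights (0.98) or with limma's treat, which tests against the minimum. The call of Itga7 ended with treat too. Itgb5 lay just under the minimum at 1.0 ± 0.06, and was past it at 1.01 to 1.02 without iPS replicate 2, iPS replicate 3 or ES replicate 2. Cdh11 was at 0.93 ± 0.16, and at 1.16 and called without ES replicate 2. Leaving out iPS replicate 2 also added Pcdhb22 (1.10), leaving out ES replicate 1 added Itga3 (-1.01) and Itgb7 (-1.05) on the lower side, and leaving out ES replicate 2 added Itgb7 (-1.03). Itgb7 was called lower as well after quantile normalization (-1.13) and with arrays centred (-1.06). With array weights Cdh11 (1.05) and Itgb5 (1.01) were called higher.

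**Figure D5:**
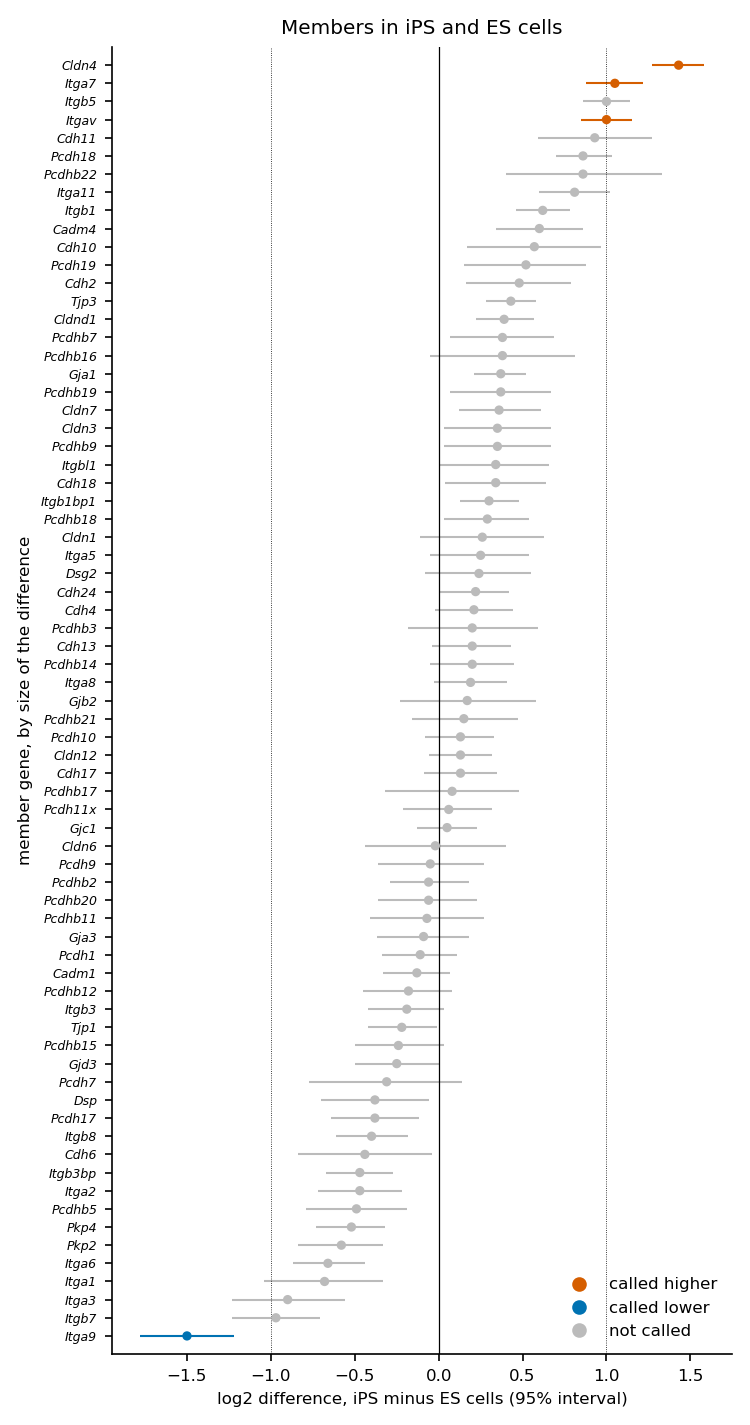
Log2 difference of iPS minus ES cells for each member (points, 95% intervals), ordered by size, with dotted lines at the minimum of 1 for a call. Cldn4, Itga7 and Itgav are called on the positive side, up to 1.43, and Itga9 on the negative side at -1.5.

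Of the 17 fibroblast and feeder markers, 7 were higher and 1 lower in iPS than in ES cells, and of 7 muscle markers measured 7 were higher. The summed linear level of the muscle markers was 9180 to 9360 in iPS cells and 1510 to 2440 in ES cells, and the part of either cell type in the differences of Itgav, Itgb5, Itga7 and Cdh11 was not tested. Of the integrin partners 4 were higher, Cav1 (2.04 ± 0.14), Lpp (1.04), Parva (1.03) and Csrp1 (1.02), and Parvb was lower (-1.13). The tight junction gene Jam3 was higher in iPS than in ES cells by 2.06 ± 0.09, with 0.67 in iPS cells and -1.39 in ES cells relative to fibroblasts.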

How the data were processed

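Array values were taken as deposited by the authors: log2 levels per probe set in the value table of the series, 12 arrays, with biotin labelling by the Affymetrix WT Terminal Labeling Kit per the labels' protocols. The log2 scale is inferred from the range, 2.43 to 13.64. Summary and normalization are not given in the sources used here. Each probe set varied by at least 0.509 between its lowest and highest array, as a filter on variation would leave, so shares refer to such genes.

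Of 10360 probe sets, the platform annotation gave 9542 a single symbol, 344 several and 474 none, and the 9542 stand for 9539 genes (the brightest probe set of a gene was used). The symbol rule matched 73, less 2 exceptions, and 3 probe sets with several symbols were left out. Levels of different probe sets were compared only in the beta-cluster correlation with fibroblast level and in picking the brightest or dropping the dimmest. They were summed or averaged over marker lists and averaged over the beta cluster.

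Differences were fitted with limma 3.58.1 in R 4.3.3 over all 12 arrays as group means, with eBayes at its default settings and p-values adjusted by Benjamini-Hochberg over 9539 genes. A call needed an adjusted p under 0.05 and a log2 difference of at least 1. The fit was tested on simulated data. Motifs were searched in RefSeq promoters of GRCm38.p6. Python 3.11.15, pandas 2.3.3, numpy 2.4.6 and matplotlib 3.10.9 made tables and plots.

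Members and lists were chosen with earlier results of these data known. Values per array are given for the 6 highest and 6 lowest called members of a comparison and the called extremes of each family, and up to 3 called genes of a partner list. Itgb1 and members near the minimum were named after their values were seen. Alternatives were quantile normalization, centred arrays, dropping the dimmest 25% of genes, averaging probe sets, a fit of the compared groups alone, a robust prior with trend, weights per array, the replicate number as block, calls with no fold minimum, treat in limma, and each array left out in turn.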

Additional observations from a re-analysis of the deposited data

Results flagged for a closer look

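The difference of iPS minus ES cells was called for 4 of the 71 members (limma, adjusted over all genes), beside 6.9% of all genes. It equals the difference between the lines' differences from fibroblasts. By adjusted p alone, with no minimum, 20 members were higher and 13 lower in iPS cells, beside 30.0% and 27.7% of all genes. Cldn4 was higher by 1.43 on the log2 scale, with 3.60 in iPS cells and 2.18 in ES cells relative to fibroblasts. Itga7 was higher by 1.05, with 0.67 in iPS cells and -0.38 in ES cells. With arrays centred Itga7 was at 0.96 and not called, and it was not called with limma's treat. Itgav was higher by 1.0, with -1.78 in iPS cells and -2.78 in ES cells. Without iPS replicate 1, iPS replicate 3, ES replicate 2 or ES replicate 3 this ended at 0.95 to 1.0, under the minimum, as it did at 0.91 with arrays centred and at 0.98 with array weights. The Itgav call ended with treat as well. Itga9 was lower, at -1.5, with -0.90 in iPS cells and 0.60 in ES cells. Line, passage and strain differ together between the lines and cannot be told apart. With 3 arrays in a group, outlying arrays were not tested.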

How the results depend on the processing

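Of 134 member calls over the 5 comparisons, 25 ended under some alternative, 11 of them under one other than limma's treat and centring, and 0 changed sign. Members dropped with the dimmest 25% of genes have no value under that alternative. Their lost calls are not in these counts and come on top of them. Centring and quantile normalization moved the median of all genes in iPS cells against fibroblasts to -0.10 and -0.18, beside -0.35. Counts of members called, higher and lower, were 3 and 1 in day-1 cells against fibroblasts, 11 and 31 in iPS cells and 13 and 32 in ES cells against fibroblasts, 3 and 1 in iPS against ES cells, and 8 and 31 in iPS against day-1 cells. With no fold minimum they were 21 and 20, 19 and 46, 21 and 48, 20 and 13, and 17 and 49 in that order, and all-gene calls 5449, 8985, 9050, 5502 and 8851, beside 743, 4897, 5299, 658 and 4216. Dropping the dimmest 25% of genes left 30 members. Their counts were 1 and 0, 6 and 14, 9 and 15, 2 and 1, and 5 and 14 in that order. With treat, counts were 1 and 0, 9 and 26, 13 and 27, 1 and 1, and 7 and 26 in that order. All-gene calls with treat were 315, 3832, 4336, 226 and 3131. Array weights gave 2 and 2, 11 and 31, 13 and 32, 4 and 1, and 8 and 31. Centred arrays gave 3 and 1, 16 and 26, 13 and 25, 1 and 2, and 10 and 27. Quantile normalization gave 2 and 1, 14 and 31, 13 and 30, 3 and 2, and 10 and 31. Leaving out an array gave 2 to 3 higher and 0 to 5 lower in day-1 cells, 9 to 13 and 31 to 33 in iPS cells, 13 and 32 to 33 in ES cells, 2 to 5 and 1 to 3 in iPS against ES cells, and 8 to 9 and 31 to 33 in iPS against day-1 cells. All-gene calls ran over 720 to 835, 4853 to 4917, 5245 to 5309, 636 to 722 and 4195 to 4251. With the replicate block the calls were 3 and 1, 11 and 31, 13 and 32, 3 and 1, and 8 and 31. Deviations of same-numbered arrays correlated at -0.21 to 0.06 over 18 pairs, 0 over 0.1, and 13 of 36 checks had an array closest to its own number. No pairing by number was seen, though with 3 arrays per group this cannot show that there was none. Signal over background is not given, so dim members, the beta cluster above all, are least certain. Outside the beta cluster, 30 of 55 members were left without the dimmest 25% of genes. Gjb2, Gja3, Dsg2, Dsp, Cldn7, Itgb7 and Cadm4 were among those dropped.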
